A study of Homo sapiens with 12 samples.

Results

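A set of 10 abundant non-coding RNAs was followed through 12 RNA sequencing libraries of THP1 cells: MALAT1, NEAT1, RN7SL1, RN7SL2, RN7SL3, RN7SK, RMRP, RPPH1, FP236383.2 and FP236383.3. They occupied 11 of the 58735 rows of the gene count matrix, since RMRP has 2 gene models. They were chosen by their counts in single libraries, above all in control ECs replicate 2, where several were far higher than elsewhere. Their level in that library is described below without a test. Of the 10 RNAs, 6 had reads counted to them and 4 were listed at 0 in every library.

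THP1 is a human monocytic leukemia line, here labelled WT. The cells were kept for 24 h in the upper chamber of transwell inserts with 1 µm pores, in complete endothelial cell medium. Below them was either no other cell (mono-culture), human umbilical vein endothelial cells given the DMSO vehicle (control ECs), endothelial cells made senescent with etoposide (senECs), or etoposide-treated endothelial cells that then received epigallocatechin gallate (EGCG-treated senECs). THP1 cells of all 4 groups, mono-culture included, then left the inserts and received LPS (100 ng/ml, 2 h), after which their RNA was taken. Each group had 3 libraries: replicates 1, 2 and 3 of the mono-culture and control ECs, and replicates 1, 2 and 5 of the senECs and EGCG-treated senECs. The labels do not say whether replicates came from separate cultures, so p-values measure only the spread between these libraries, which may be technical. In bulk RNA, fewer cells of a kind and less RNA per cell cannot be told apart.

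MALAT1 is a long nuclear RNA that gathers in nuclear speckles, the domains that store splicing factors, and NEAT1 is the scaffold of paraspeckles. The primary transcript of MALAT1 is cut by RNase P, which leaves a 3′ end with no added poly(A) tail, and the long form of NEAT1 ends in a similar way. The 7SL RNAs (RN7SL1, RN7SL2) form the core of the signal recognition particle, which brings secreted proteins to the endoplasmic reticulum. RN7SK holds the kinase P-TEFb inactive, RMRP is the RNA of RNase MRP, and RPPH1 is the RNA of RNase P. These small RNAs are made by RNA polymerase III. FP236383.2 and FP236383.3 are gene models placed on the ribosomal DNA of chromosome 21.

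The gene symbols of the matrix were the same 57169 distinct symbols as those of GENCODE 29, and positions below are those of that annotation on GRCh38. RN7SL1, RN7SL2 and RN7SL3 lie on chromosome 14 and are nearly identical. A read that covers no differing base fits all 3 copies, so the split of counts between the copies is uncertain and depends on how shared reads were counted, which is not given in the sources used here.

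MALAT1 (chr11:65497688-65506516, plus strand) has a genomic run of A close to the place where its transcript is cut. The last 110 bases before the mascRNA element, the small RNA cut from its 3′ side (chr11:65506117-65506173), are shown because they hold that run, with the run in capitals (chr11:65506007-65506116).
MALAT1 3′ window: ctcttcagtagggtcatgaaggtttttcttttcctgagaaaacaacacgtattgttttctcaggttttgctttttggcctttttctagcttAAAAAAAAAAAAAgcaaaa
The run is 13 bases long and stops 6 bases before the element. NEAT1 (chr11:65422774-65445540, plus strand) lies on the same chromosome arm. Its long transcript of 22743 bases has a run of 22 A, which lies inside the transcript with 4676 bases after it. Its short transcript of 3441 bases has no run of A longer than 5 in its annotated sequence. The 3 RN7SL copies have no run of A longer than 4, RN7SK and RMRP none longer than 3, and RPPH1 none longer than 2. The libraries were mRNA libraries. How the RNA was selected for them is not given in the sources used here.

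Library totals ran from 15439836 to 22092600 counts, the highest being control ECs replicate 2. Levels are given in CPM (counts of a gene for each 1000000 counts of its library), after scaling by edgeR's TMM factors, which lay between 0.912 and 1.04. A count of 3 in the smallest library was 0.194 CPM. All 10 of the THP1 monocyte markers were detected (AZU1 at a mean of 1380 CPM, SPI1 at 288), although CD68 had 84 counts in all. Of 10 endothelial markers, CDH5 had 2 counts over all libraries, EMCN 5 and KDR 26, while PECAM1 averaged 163 CPM and was present in the mono-culture too. The summed endothelial markers were 155 to 181 CPM in mono-culture, 153 to 173 in control ECs, 194 to 234 in senECs and 185 to 241 in EGCG-treated senECs.

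MALAT1 was the most counted of the RNAs in most libraries. Its level in the mono-culture was 357, 412 and 372 CPM (replicates 1, 2 and 3). With control ECs it was 413, 1300 and 360 CPM. With senECs it was 363, 328 and 203 CPM (replicates 1, 2 and 5), and with EGCG-treated senECs it was 461, 359 and 308 CPM. Control ECs replicate 2 stood 2.82-fold above the next library and 3.61-fold above the median of the other 11, and senECs replicate 5 was the lowest of all. Outside control ECs replicate 2 the 4 groups overlapped, with a 2.26-fold range between the highest and lowest of the 11 libraries.

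NEAT1 varied much less. It was at 292, 279 and 398 CPM in the mono-culture and at 261, 414 and 332 CPM with control ECs. The senECs libraries had 305, 300.3 and 259.8 CPM and the EGCG-treated senECs libraries had 333, 259.5 and 330.3 CPM. Control ECs replicate 2 was again the highest, but only 1.04-fold above mono-culture replicate 3, and the groups overlapped throughout. The whole range over 12 libraries was 1.59-fold, against 6.39-fold for MALAT1. MALAT1 counts per NEAT1 count were 3.14 in control ECs replicate 2 and between 0.783 and 1.58 in the other 11 libraries.

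RN7SL2 took nearly all counts of the 7SL copies. It was at 235, 220 and 236 CPM in the mono-culture, 486, 632 and 187 CPM with control ECs, 273, 207 and 219 CPM with senECs, and 286, 264 and 178 CPM with EGCG-treated senECs. Here 2 libraries were high, control ECs replicates 1 and 2, while control ECs replicate 3 lay below all mono-culture libraries. RN7SL3 was far rarer and followed the same order at the top. Its levels were 4.60, 4.79 and 3.36 CPM in the mono-culture, 12.6, 17.9 and 3.11 CPM with control ECs, 5.99, 3.24 and 4.41 CPM with senECs, and 5.79, 5.08 and 2.73 CPM with EGCG-treated senECs. Across the 12 libraries log2(CPM + 2) of RN7SL2 and RN7SL3 had a Pearson r of 0.983, and 0.885 over the 10 libraries left without control ECs replicates 1 and 2. The copies share sequence, so reads could be exchanged between them, and r is a description.

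RN7SL3 made up 1.40% to 2.76% of the RN7SL2 and RN7SL3 counts. The share was 2.76% in control ECs replicate 2 (95% Wilson interval 2.51 to 3.04) and 2.53% in replicate 1 (2.25 to 2.85). The other 10 libraries lay between 1.40% and 2.14%. These intervals cover counting error only. Both libraries with the most 7SL counts thus had the highest shares of RN7SL3. Rows named as 7SL copies, mostly pseudogenes (677 rows, 396 of them at 0), summed to 51.6 CPM in control ECs replicate 2 and to 22.7 to 34.3 CPM in the others.

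**Figure D1:**
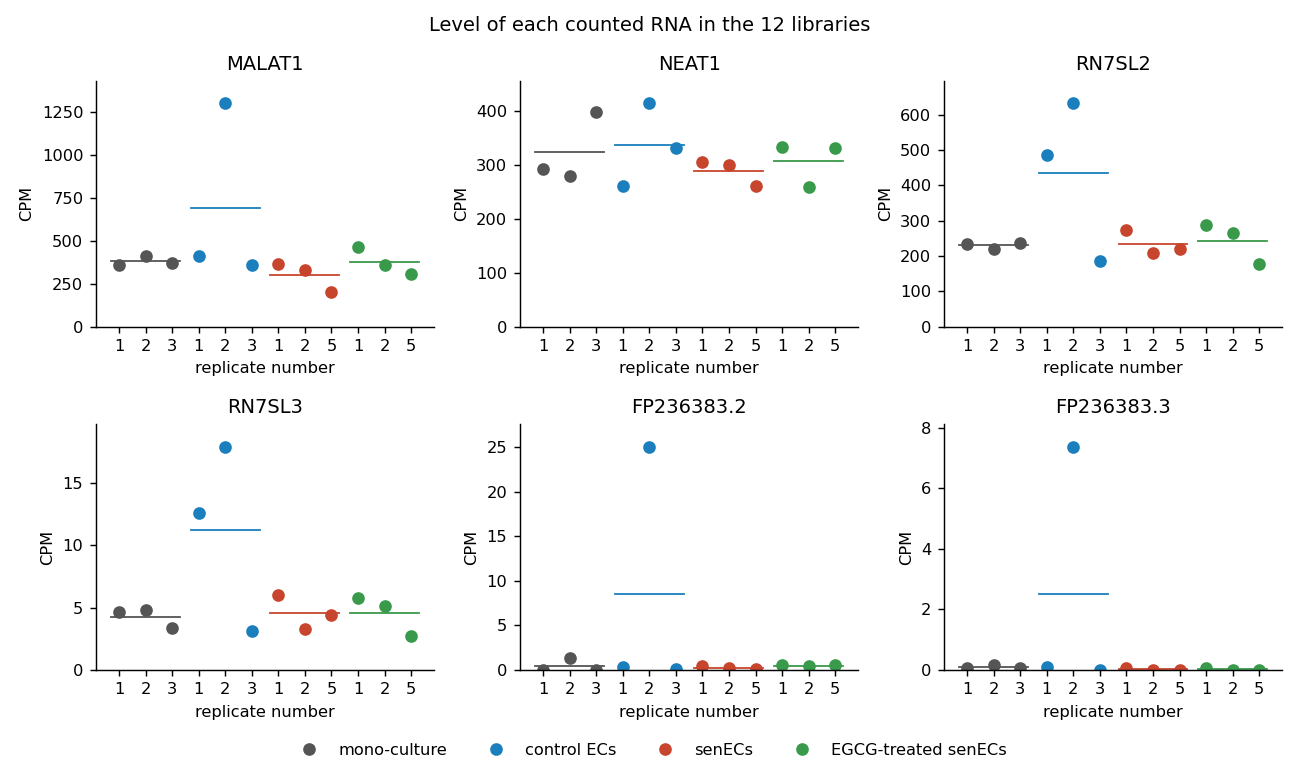
Level (CPM, linear axes from 0) of the 6 counted RNAs in each of the 12 libraries, by replicate number and coloured by group, with a line at each group mean. Control ECs replicate 2 is the highest point in all 6 panels, by 1.04-fold over the next library for NEAT1 and by 2.82-fold for MALAT1. For RN7SL2 and RN7SL3 control ECs replicate 1 is the next highest.

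FP236383.2 (chr21:8393419-8394341, minus strand) and FP236383.3 (chr21:8437629-8438551, minus strand) are identical over all 923 bases. By RefSeq coordinates they lie inside the 18S genes RNA18SN3 and RNA18SN1 (RefSeq on GRCh38.p14), without a strand in that table. Whether strand was used in counting is not given in the sources used here, so reads of 18S RNA and reads of the opposite strand cannot be told apart. FP236383.2 had 0, 24 and 0 counts in the mono-culture, 7, 571 and 1 with control ECs, 8, 4 and 1 with senECs, and 8, 7 and 9 with EGCG-treated senECs. FP236383.3 had 168 counts in control ECs replicate 2 and 9 counts in the other 11 libraries together, with at most 3 in any. The summed level of both was 32.5 CPM in control ECs replicate 2, which was 22.3-fold above the next library, mono-culture replicate 2 at 1.45 CPM.

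The 4 RNAs at 0 were RN7SL1, RN7SK (chr6:52995621-52995948, plus strand), RMRP (chr9:35657751-35658018, minus strand) and RPPH1 (chr14:20343075-20343407, minus strand). RN7SK, RMRP and RPPH1 are RNAs that every cell uses, so a 0 here is no measure of their level. Each of the 4 lies inside another gene model on the same strand. RN7SL1 is wholly inside AL139099.4, RN7SK wholly inside a model named RF00100, RPPH1 wholly inside AL355075.4, and the 2 RMRP models cover each other by 98.5% and 100%. AL139099.4 and AL355075.4 also had 0 counts, and the 7 rows named RF00100 had 8 counts in all. By contrast RN7SL2 and RN7SL3 overlap no other exon.

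The same held across the annotation. Of 801 genes with at least 99% of their exons inside another gene on the same strand, 797 (99.5%) were at 0 in all 12 libraries. Of 706 genes covered in that way only on the opposite strand, 704 (99.7%) were at 0. Among 41036 genes with under 1% overlap on either strand, 18449 (45%) were at 0. For models of 200 to 400 bases the shares were 99% of 96, 99.2% of 128 and 63.4% of 5840. The part of overlap in the zeros of RN7SL1, RN7SK, RMRP and RPPH1 was not tested beyond this count.

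Per kilobase of exon, RN7SL2 was far the highest of the set. Its model has only 300 bases, against 8829 for MALAT1, so this scale compares them only roughly. RN7SL2 may also hold reads of the other 7SL copies. The mono-culture mean was 768 ± 29.7 CPM per kilobase for RN7SL2 (SD, n = 3), 43.1 ± 3.18 for MALAT1, 14.2 ± 2.88 for NEAT1 and 14.2 ± 2.60 for RN7SL3. NEAT1 was divided by the full length of its model, which counts the long form. The order RN7SL2, MALAT1, then NEAT1 held in the means of all 4 groups. NEAT1 and RN7SL3 did not differ beyond their spread in the mono-culture.

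All 10 RNAs together took 0.0626% to 0.1214% of the counts in 11 libraries and 0.2468% in control ECs replicate 2. The lowest share was that of senECs replicate 5. Of the counts of the set, MALAT1 held 54.3% in control ECs replicate 2 and 29.6% to 44.9% elsewhere. The 7SL copies held 42.5% in control ECs replicate 1, 27.1% in replicate 2 and 21.5% in replicate 3. So control ECs replicates 1 and 2 were both high in 7SL RNA but differed in make-up, with 1.18 RN7SL2 counts per MALAT1 count in replicate 1 and 0.486 in replicate 2. With mitochondrial genes left out of the totals the share in control ECs replicate 2 was 0.2582%.

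**Figure D2:**
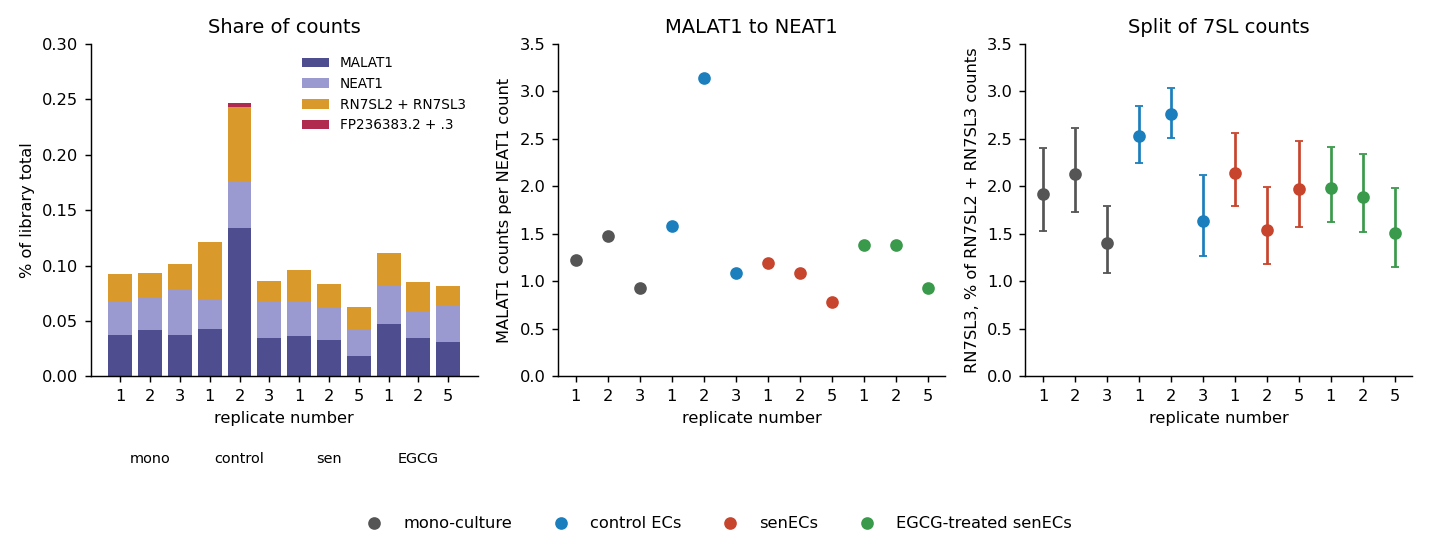
Left, percent of each library total counted to the RNAs, stacked by RNA. Middle, MALAT1 counts per NEAT1 count. Right, RN7SL3 as a percent of RN7SL2 plus RN7SL3 counts, with 95% Wilson intervals (counting error only); each position is 1 library, labelled by replicate number. Control ECs replicate 2 reaches 0.2468% and a ratio of 3.14, and control ECs replicates 1 and 2 have the highest shares of RN7SL3 (2.53% and 2.76%).

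Control ECs replicate 2 differed from the other libraries in further RNAs, named here after their values were seen. Of 14397 genes with a mean of at least 1 CPM, 20 stood more than 2-fold above every other library there, against at most 7 in any other library. They included MALAT1, FP236383.2, 4 histone genes and MT-RNR1, the small ribosomal RNA of mitochondria, and 3 other protein-coding genes. MT-RNR1 was at 3546 CPM, with 296 to 804 CPM in the other 11 libraries. MT-RNR2, the large mitochondrial ribosomal RNA, was at 7349 CPM against 2014 to 3727, whereas the 13 mitochondrial mRNAs summed to less than their median elsewhere (0.937-fold).

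The histone genes that are active during DNA replication, whose mRNAs end in a stem-loop and not in poly(A), summed to 186 CPM in control ECs replicate 2 and to 42.1 to 61.6 CPM in the others. HIST1H1B had 209 counts there and 0 to 18 elsewhere. Of the ribosomal DNA rows, RNA5-8SN2 (5.8S RNA) had 267 counts against 11 to 39, and MIR3648-1 had 188 against 8 to 45. FP236383.1, a further model of that name, did not share this, with 28 counts against 15 to 47. KCNQ1OT1, a long nuclear antisense RNA, was 2.16-fold above the median of the others, but NORAD (1.04-fold), TUG1 (1.00-fold) and GAS5 (0.947-fold) were level. The part of any of these in the level of MALAT1 or the 7SL copies was not tested.

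**Figure D3:**
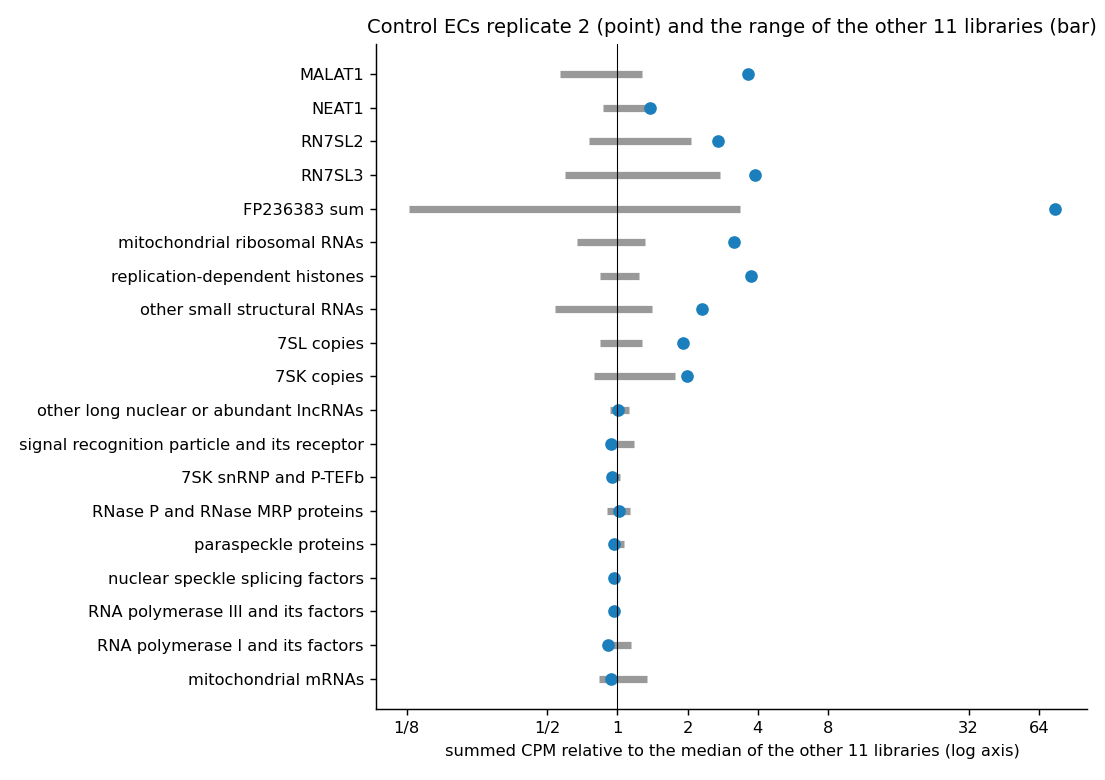
Level in control ECs replicate 2 (point) relative to the median of the other 11 libraries, for the RNAs and for summed gene lists, on a log axis; grey bars span the other 11 libraries. Histones (3.73-fold), mitochondrial ribosomal RNAs (3.16-fold), MALAT1 (3.61-fold) and RN7SL3 (3.90-fold) lie to the right of their bars, whereas the lists of protein partners lie between 0.916 and 1.02.

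The first question was whether any of the RNAs differed between THP1 groups beyond the spread of replicates. For comparisons without control ECs all 12 libraries were fitted together in edgeR's quasi-likelihood test over 25873 genes. Control ECs replicate 2 thus stayed in the shared spread of these fits. The standard error of MALAT1 with senECs against mono-culture was 0.32 with it and 0.17 without it. Without that library 0 RNAs were called in these comparisons too. Comparisons with control ECs used 11 libraries, leaving out control ECs replicate 2, because its values chose the RNAs. All 6 counted RNAs entered the tests, but FP236383.3 only because of its counts in control ECs replicate 2. The counts out of 6 below include it, although with so few counts elsewhere it could hardly be called. No RNA of the set passed an adjusted p of 0.05 in any of the 6 comparisons, and DESeq2 called none either. Some alternative fits called MALAT1 or RN7SL2, as given below.

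With senECs against mono-culture 0 of 6 RNAs were called, where 0.309% of all genes were, and 0 of 6 had an unadjusted p under 0.05, where 11% of all genes did. MALAT1 averaged 298 ± 83.9 CPM with senECs and 380 ± 28.1 in mono-culture (SD, n = 3 each). Its log2 fold change was -0.35 (SE 0.32, edgeR adjusted p = 0.754). The spread in that fit includes control ECs replicate 2. Over the 11 libraries without it the fold change was -0.36 (SE 0.17, edgeR adjusted p = 0.475). In an alternative fit over 12 libraries with the replicate number as a block, MALAT1 was called (-0.38, edgeR adjusted p = 0.0178). There 2.74% of all genes were called. Without the block the value moved with single senECs libraries, to -0.14 without replicate 5 and to -0.52 without replicate 1. NEAT1 (-0.16, SE 0.16), RN7SL2 (0.02, SE 0.27) and RN7SL3 (0.10, SE 0.43) differed by about their standard errors or less.

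With EGCG-treated senECs against mono-culture 0 of 6 RNAs were called (0.213% of all genes), and 0 of 6 had an unadjusted p under 0.05 (8.58% of all genes). The log2 fold changes were -0.02 for MALAT1, -0.07 for NEAT1, 0.08 for RN7SL2 and 0.09 for RN7SL3. EGCG-treated senECs against senECs gave 0 of 6 (0% of all genes) and 0 of 6 at an unadjusted p under 0.05 (2.22% of all genes). There MALAT1 had a log2 fold change of 0.33 (SE 0.32, edgeR adjusted p = 1), with means of 376 ± 77.6 and 298 ± 83.9 CPM. Over the 11 libraries without control ECs replicate 2 it was 0.33 with a smaller error (SE 0.17), still uncalled. Of the 3 senECs libraries, replicate 5 was the low one, and without it the log2 fold change was 0.12.

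With control ECs against mono-culture 0 of 6 were called (0.0541% of all genes), and RN7SL2 and RN7SL3 had an unadjusted p under 0.05 (4.79% of all genes). RN7SL2 had a log2 fold change of 0.56 (SE 0.26, edgeR adjusted p = 0.992) and RN7SL3 of 0.91 (SE 0.42, edgeR adjusted p = 0.992). These values rest on control ECs replicate 1. Without it, with replicate 3 as the lone control ECs library assumed to vary like the other groups, they turned to -0.31 and -0.45. MALAT1 (0.03, SE 0.19) and NEAT1 (-0.12, SE 0.16) were within their errors. As a description, the fit with control ECs replicate 2 gave 0.86 for MALAT1, 0.92 for RN7SL2 and 1.41 for RN7SL3. Without that library, RN7SL2 was called with the replicate number as a block (0.42, edgeR adjusted p = 0.00703, where 1.11% of all genes were). Keeping every gene with a count called it too (0.56, edgeR adjusted p = 0.0067, where 0.411% were).

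With senECs against control ECs 0 of 6 were called (0% of all genes), and 1 of 6, RN7SL2, had an unadjusted p under 0.05 (3.47% of all genes). The log2 fold changes were -0.39 for MALAT1 (SE 0.19, edgeR adjusted p = 0.989), -0.55 for RN7SL2 (SE 0.26, edgeR adjusted p = 0.989) and -0.81 for RN7SL3 (SE 0.42). That of MALAT1 was -0.16 without senECs replicate 5 and -0.55 without senECs replicate 1. Without control ECs replicate 1 those of RN7SL2 and RN7SL3 were 0.32 and 0.55. EGCG-treated senECs against control ECs gave 0 of 6 (0% of all genes) and 0 of 6 at an unadjusted p under 0.05 (2.73% of all genes). RN7SL2 had -0.49 (SE 0.26) and RN7SL3 -0.83 (SE 0.42), which became 0.37 and 0.53 without control ECs replicate 1. NEAT1 had 0.04 in that comparison and -0.05 in the one before. The 3 comparisons with control ECs share those libraries.

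**Figure D4:**
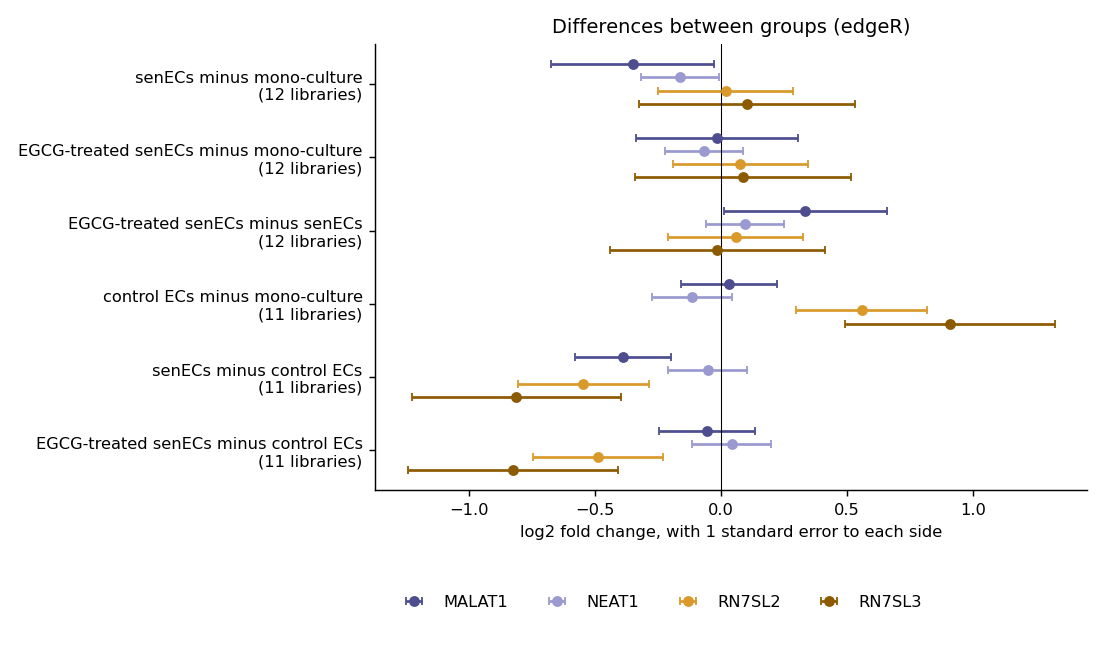
Log2 fold change (x axis) of MALAT1, NEAT1, RN7SL2 and RN7SL3 in the 6 comparisons, with bars of 1 standard error; comparisons with control ECs used 11 libraries. The widest departures from 0 are those of RN7SL3 and RN7SL2 against control ECs (0.91 and 0.56 over mono-culture), which change sign without control ECs replicate 1.

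The protein partners of these RNAs and related RNAs were read from 11 lists, tested over the 12 libraries. With senECs against mono-culture edgeR called 1 list gene, where it called 0.309% of all genes. DESeq2 called 3 list genes there, where it called 1.31% of all genes. The gene called by edgeR was OIP5-AS1, a long non-coding RNA of the list of other nuclear or abundant lncRNAs. OIP5-AS1 fell from 307 ± 32.7 to 190 ± 35.4 CPM (SD, n = 3, log2 fold change -0.69, SE 0.13, edgeR adjusted p = 0.0182). Without mono-culture replicate 2 its log2 fold change was -0.62 (edgeR adjusted p = 0.121), and without senECs replicate 5 it was -0.54 (edgeR adjusted p = 0.0623). Of the list genes, 11.9% had an unadjusted p under 0.05, against 11% of all genes. In each of the other 5 comparisons edgeR called 0 list genes. With EGCG-treated senECs 7.96% had an unadjusted p under 0.05 against mono-culture (8.58% of all genes) and 1.49% against senECs (2.22% of all genes). DESeq2 called 2 and 0 list genes there, where it called 0.873% and 0% of all genes. With control ECs against mono-culture DESeq2 called 2 list genes, where it called 0.448% of all genes. The share of list genes with an unadjusted p under 0.05 was 13.4% there (27 genes, 6.52% of all genes, of which edgeR called 0.143%). With senECs against control ECs it was 19.9% (40 genes, 6.6% of all genes, DESeq2 called 0), and with EGCG-treated senECs against control ECs 14.4% (29 genes, 4.55% of all genes, DESeq2 called 0). Without control ECs replicate 2 these 3 counts were 7, 4 and 3. Most of that difference was in histones, which had 20, 27 and 22 such genes with that library and 3, 0 and 2 without it.

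The signal recognition particle and its receptor (8 genes, SRP9 the most abundant at 434 CPM) had 0 called genes in all 6 comparisons. Its median log2 fold change was 0.15 with senECs against mono-culture, with 8 of 8 above 0, beside a median of -0.02 over all genes, and -0.07 with EGCG-treated senECs against senECs, with 0 of 8 above 0. Its summed level in control ECs replicate 2 was 0.940-fold the median of the others, where RN7SL2 stood at 2.69-fold. The 7SK snRNP and P-TEFb (7 genes, CCNT2 the most abundant) had median log2 fold changes of 0.04 and 0.08 in these comparisons, with 4 of 7 and 5 of 7 above 0. RNase P and RNase MRP proteins (11 genes, POP1 the most abundant) had 0.18, with 10 of 11 above 0, and -0.06, with 2 of 11 above 0. All of these were uncalled. Both comparisons use the same senECs libraries, so a high level there moves them in opposite directions. The signal recognition particle list summed to 1501, 1628 and 1831 CPM with senECs (replicates 1, 2 and 5), overlapping the mono-culture (1449 to 1586). The RNase P and RNase MRP list had 275.4, 275.5 and 310.4 CPM with senECs and 246.9 to 266.7 in mono-culture. For both lists senECs replicate 5 was the highest library.

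Paraspeckle proteins (16 rows, HNRNPK the most abundant at 887 CPM) and nuclear speckle splicing factors (14 genes, SRRM2 at 897 CPM) both had a median log2 fold change of 0.10 with senECs against mono-culture. RNA polymerase III with its factors (30 genes, GTF3A the most abundant) had 0.10 there, and RNA polymerase I with its factors (18 genes, led by NCL, nucleolin) had 0.10. In the order named, 12 of 16, 11 of 14, 21 of 30 and 15 of 18 were above 0 there. A lean above 0 was thus not particular to the signal recognition particle or the RNase P proteins. With EGCG-treated senECs against senECs these were 6 of 16, 6 of 14, 16 of 30 and 4 of 18. No gene of these 4 lists was called in any comparison over the 12 libraries, by edgeR, and DESeq2 called 1, a paraspeckle protein, with EGCG-treated senECs against mono-culture. Their summed levels in control ECs replicate 2 were 0.916 to 0.970-fold the median of the others.

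Other small structural RNAs were hardly counted. Of 50 rows, 26 were at 0, 9 had at least 10 counts, and SNORA73B led them at a mean of 2.56 CPM. Their sum was 9.53 CPM in control ECs replicate 2 and 2.22 to 5.79 CPM elsewhere. Replication-dependent histones (63 tested, HIST1H2BH the most abundant at 7.25 CPM) had a median log2 fold change of 1.60 with control ECs against mono-culture, and -0.04 without control ECs replicate 2. The mitochondrial ribosomal RNAs (MT-RNR2 at a mean of 3220 CPM) went from a median of 1.00 to 0.01 in the same way.

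Genes whose level followed that of an RNA were ranked by Pearson r of log2(CPM + 2) over the 12 libraries, among 9348 genes with a mean of at least 10 CPM. For MALAT1 the nearest were SOX5 (r = 0.899), ENTPD7 (0.896) and MT-RNR1 (0.892). Without control ECs replicate 2 these fell to 0.716, 0.736 and 0.545, at ranks 341, 262 and 1109. For the summed FP236383 models MT-RNR2 (0.896, then 0.305), MT-RNR1 (0.892, then 0.456) and ACBD5 (0.814, then 0.644) were nearest. For the summed 7SL copies they were PLEKHG3 (0.849, and 0.855 without that library, at rank 2), MT-RNR1 (0.845, then 0.629) and TBCE (0.833, then 0.754). For NEAT1 they were LINC00641 (0.803, and 0.695 without that library, at rank 43), RPL32P3 (0.790, then 0.832, at rank 3) and LPCAT3 (0.789, then 0.697, at rank 40). All points share the libraries and their scaling, and r is given as a description.

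Among the RNAs themselves MALAT1 had r = 0.779 with RN7SL2 and 0.617 with NEAT1 over 12 libraries. Without control ECs replicate 2 these were 0.428 and 0.269. NEAT1 and RN7SL2 had 0.222, and -0.36 without that library. FP236383.2 and FP236383.3, with the same sequence, had 0.986, and 0.598 without it, where the counts are few.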

How the data were processed

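Gene expression was measured by RNA sequencing in 12 libraries of THP1 cells, 3 in each of 4 groups taken from the sample labels. The authors isolated RNA with TRIzol, had mRNA libraries sequenced as read pairs, aligned reads with HISAT2 to hg38 (per the labels) and deposited whole-number counts per gene without normalization. The counter, its annotation, its use of strand and its handling of shared reads are not given in the sources used here. A further 4 columns of the table matched no sample and were not used. The RNAs and gene lists were chosen with earlier results of these data known.

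Counts were fitted in edgeR 4.0.16 (R 4.3.3) by the quasi-likelihood test with TMM scaling, on the 25873 genes whose 12 libraries summed to 10 counts or more, with Benjamini-Hochberg adjustment over all genes and a threshold of 0.05. The 3 comparisons without control ECs used 12 libraries, and the 3 with control ECs left out control ECs replicate 2. Gene lists used 12 libraries in all 6. In simulated counts for senECs against mono-culture (25009 genes), 168 of 200 genes changed 2-fold were recovered, with 15 false calls. The changed genes were drawn from well-counted genes only, and no effect of replicate number or of a single library was simulated. The recovery thus does not cover rarely counted RNAs or such effects. Named genes were the 10 RNAs, up to 3 called genes of each list or else its most abundant gene, and the 3 genes nearest in pattern to each RNA (mean of at least 10 CPM, pseudocount 2 CPM). Library totals, as deposited counts, were 15439836 to 22092600, which puts a floor of 3 counts at no more than 0.194 CPM. Alternatives were DESeq2 1.42.0, its size factors, library totals alone, scaling without the 10 RNAs, other filters, only the compared groups, a replicate term, and leaving out each library. Sequences and positions came from GENCODE 29 and RefSeq on GRCh38, and alignments between gene models from Biopython 1.88. The sequences of the 7SL copies are not reported here.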

Additional observations from a re-analysis of the deposited data

How the results depend on the processing

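No RNA of the set was called in any comparison, and this count moved in 3 cases. An alternative fit took the replicate number as a block. Number 3 occurred only in mono-culture and control ECs, and number 5 only in senECs and EGCG-treated senECs. Libraries numbered 3 and 5 were thus not compared directly under the block. Without control ECs replicate 2, control ECs shared only number 1 with the senECs and EGCG-treated senECs. With the replicate number as a block, MALAT1 was called with senECs against mono-culture (1 of 6, log2 fold change -0.38, adjusted p = 0.0178, edgeR, where 2.74% of all genes were called) and RN7SL2 with control ECs against mono-culture (1 of 6, 0.42, edgeR adjusted p = 0.00703, where 1.11% were). With every gene with a count kept, RN7SL2 was called with control ECs against mono-culture (1 of 6, 0.56, edgeR adjusted p = 0.0067, where 0.411% of 34767 genes were). The replicate numbers were not taken to pair the libraries: same-numbered libraries of different groups had correlations of their deviations from 0.032 to 0.577 (14 pairs, median 0.38), not all over 0.1, against -0.56 to 0.534 for others (40 pairs, median -0.134). The deviations were taken from group means, so the covariances of a library with all libraries of another group cancel. The negative median for different numbers is thus partly built in and is no separate contrast. The 6 pairs of replicates numbered 1 lay between 0.457 and 0.577. Among pairs of different number, control ECs replicate 3 had 0.534 with senECs replicate 5 and 0.472 with EGCG-treated senECs replicate 5. Mono-culture replicate 3 had 0.37 and 0.425 with these libraries. Of the 12 libraries, 8 correlated best with a library of their own number, which is a hint from the data and not from the design. Leaving out 1 library left the count at 0 in every case (range 0 to 0).

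Uncalled fold changes near 0 turned sign. Under the block these were RN7SL2 (-0.13) and RN7SL3 (-0.17) with senECs against mono-culture, NEAT1 (0.036), RN7SL2 (-0.10) and RN7SL3 (-0.22) with EGCG-treated senECs against mono-culture, NEAT1 with senECs against control ECs (0.22) and MALAT1 with EGCG-treated senECs against control ECs (0.10). With library totals alone they were RN7SL2 with senECs against mono-culture (-0.054), RN7SL3 with EGCG-treated senECs against senECs (0.014) and MALAT1 with control ECs against mono-culture (-0.0004). With at least 10 counts in every library RN7SL2 had -0.0098 with senECs against mono-culture. With control ECs replicate 2 kept, NEAT1 had 0.056 with control ECs against mono-culture and -0.13 with EGCG-treated senECs against control ECs. The cause of these shifts was not tested.

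Leaving out 1 library gave these ranges of log2 fold change. With senECs against mono-culture they were -0.52 to -0.14 (MALAT1), -0.27 to 0.0078 (NEAT1), -0.12 to 0.0945 (RN7SL2) and -0.16 to 0.29 (RN7SL3). With EGCG-treated senECs against mono-culture they were -0.19 to 0.11 (MALAT1), -0.17 to 0.10 (NEAT1), -0.065 to 0.26 (RN7SL2) and -0.14 to 0.36 (RN7SL3). With EGCG-treated senECs against senECs they were 0.12 to 0.50 (MALAT1), 0.024 to 0.20 (NEAT1), -0.075 to 0.24 (RN7SL2) and -0.23 to 0.25 (RN7SL3). With control ECs against mono-culture they were -0.083 to 0.12 (MALAT1), -0.30 to 0.061 (NEAT1), -0.31 to 1.08 (RN7SL2) and -0.45 to 1.57 (RN7SL3). With senECs against control ECs they were -0.55 to -0.16 (MALAT1), -0.21 to 0.14 (NEAT1), -1.06 to 0.32 (RN7SL2) and -1.47 to 0.55 (RN7SL3). With EGCG-treated senECs against control ECs they were -0.23 to 0.083 (MALAT1), -0.11 to 0.23 (NEAT1), -1.001 to 0.37 (RN7SL2) and -1.48 to 0.53 (RN7SL3).

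Of the list genes, 1 was called with senECs against mono-culture, 6 under the block, 3 by DESeq2 and 0 to 1 without 1 library. Of all genes, 0.309% were called there in the main fit, 2.74% under the block and 1.31% by DESeq2. With EGCG-treated senECs against mono-culture 0 became 2 under the block (1.64% of all genes) and 2 by DESeq2 (0.873% of all genes). Without 1 library it was 0 to 1 (1 without senECs replicate 1 or 5). With control ECs against mono-culture 0 became 11 under the block (1.81% of all genes) and 2 by DESeq2 (0.448% of all genes). With senECs against control ECs 0 became 11 under the block (0.591% of all genes). With EGCG-treated senECs against control ECs 0 became 5 under the block (0.131% of all genes). The block fits of these 3 hold control ECs replicate 2. Over all genes, the block raised the number called with senECs against mono-culture from 80 to 709, and keeping every counted gene raised it to 588. With 2 control ECs libraries left in 3 comparisons and few counts of FP236383.2 and FP236383.3, small differences of these RNAs were not detectable, and RN7SL1, RN7SK, RMRP and RPPH1 could not be measured.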
